A study of Brachypodium distachyon with 12 samples.

Results

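BdAUX1 (Bradi2g55340), BdTAR2L (Bradi2g04290) and BdBRI1 (Bradi2g48280) were looked up by identifier among the 34310 Brachypodium transcripts counted in vascular bundles (VBs) and parenchyma of the shoot apex. Of the 3 identifiers, 2 were found, each with 1 transcript, Bradi2g55340.2 (listed length 2747) and Bradi2g04290.1 (listed length 2785), and both lie on chromosome 2 according to their identifiers. No transcript carried the identifier of BdBRI1, so its level was not analysed here. The deposited tables hold identifiers only. The gene names were taken as given with the identifiers, and neither the tables nor the study pairs them, so the pairing could not be checked.

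The tissue was taken by laser capture microdissection, in which a laser takes chosen cells out of a thin section, from wild-type plants of the line Bd21-3 that were grown in soil and left untreated. VB type 1 had no visible protoxylem cell, VB type 2 had 1 or 2, and VB type 3 had 3 in the methods and 3 to 4 in the sample labels, protoxylem being the first water-conducting tissue of a bundle. Parenchyma, the thin-walled ground tissue, was taken from the center of the stem and served as control. Each tissue had 3 libraries, each from pieces of 1 to 3 plants, while the design text of the deposited record mentions 1 biological replicate. The age was 20 days after germination in the methods and 19 days in the sample labels, which call the tissue of every library meristem. Because small pieces of mixed cells were sequenced, fewer cells of a type and less RNA per cell cannot be told apart.

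Auxin moves through plant tissue from cell to cell. AUX1 proteins of Arabidopsis are carriers that bring auxin into the cell, PIN proteins carry it out on 1 side of the cell and so give the flow its direction, and files of cells that carry auxin become vascular strands. TAA1/TAR proteins are aminotransferases that convert tryptophan in the first step of the main route of auxin synthesis. BRI1 is the receptor kinase that binds brassinosteroids, steroid hormones that also act in the growth of vascular tissue. In the wiring of a bundle these proteins thus stand for auxin uptake, auxin supply and brassinosteroid perception.

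The libraries held 12888132 to 27218311 counted read pairs. Parenchyma replicate 3 stood apart, because a single transcript took 86.3% of its pairs and left 1768043 for all others. A count of 3 pairs, taken as the detection limit, was 1.37 CPM (pairs scaled to a fixed library total after TMM normalization) in that library and 0.0719 to 0.166 CPM in the other 11. The summed level of 6 vascular markers (XCP1, TMO6, PXY and the cellulose synthases CESA4, CESA7 and CESA8) was 9.58 to 25.4 CPM in parenchyma and 194 to 1055 CPM in the VBs. Most of the sum in VBs was XCP1, a protease of xylem cells, and the other 5 markers summed to 5.49 to 8.29 CPM in parenchyma and to 46.4 to 117 CPM in the VBs. All 9 VB libraries were above every parenchyma library for XCP1, TMO6, PXY and CESA4, an order that 3.24% of the 16706 genes tested had. For CESA4, parenchyma replicate 3 had 0 pairs, with a 95% exact Poisson upper limit of 1.69 CPM. VB type 1 replicate 1 (0.626 CPM) and VB type 3 replicate 1 (0.928 CPM) were under that limit, so their order against this library is not settled. CESA7 and CESA8 overlapped, with 7 and 8 VB libraries above every parenchyma library. Of the 2 phloem SWEET genes of the marker list, Bradi3g10270.1 was higher in every VB library than in every parenchyma library, and Bradi4g07570.1 was at 0 in 11 of 12 libraries.

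BdAUX1, by its name the auxin uptake carrier, was detected in all 12 libraries, and its level varied as much within a tissue as between tissues. In parenchyma, its normalized count was 4.45, 7.53 and 17.8 CPM in replicates 1, 2 and 3. In VB type 1, it was 11.1, 20.9 and 6.68 CPM. In VB type 2, it was 1.92, 16.7 and 23.0 CPM. VB type 2 thus held both the lowest library of all 12 and one of the highest, an 11.9-fold range. In VB type 3, the level was 11.4, 26.6 and 16.998 CPM, and this type held the highest library. Of the 9 VB libraries, 3 were above every parenchyma library and 1 was below all of them, so the tissues overlapped.

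The mean level of BdAUX1 was lowest in parenchyma with 9.94 ± 7.01 CPM (SD, n = 3), followed by VB type 1 with 12.9 ± 7.28, VB type 2 with 13.9 ± 10.8 and VB type 3 with 18.3 ± 7.73 CPM. No step in this order was larger than the spread within either neighbour. Relative to parenchyma, the log2 fold change was 0.40 in VB type 1 (95% interval -1.36 to 2.17), 0.51 in VB type 2 (-1.69 to 2.71) and 0.94 in VB type 3 (-0.71 to 2.58). The Benjamini-Hochberg adjusted p-values of edgeR's quasi-likelihood test were 0.919, 0.944 and 0.685. All VBs together had a mean of 15.0 ± 7.98 CPM (SD, n = 9), 1.53-fold that of parenchyma in the fit (log2 fold change 0.61, SE 0.71, adjusted p = 0.724 in the same test). The 95% interval of that fold ran from 0.533 to 4.38, so a 4-fold higher or a 1.5-fold lower level in VBs lay inside it. The exact permutation test of the log2 CPM, two-sided, gave p = 0.541 for all VBs.

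The level of BdAUX1 in parenchyma replicate 3 depended on the scaling of that library. Its 39 pairs gave 17.8 CPM with TMM and 3.03 CPM when divided by the plain library total. Without that library, the remaining parenchyma libraries were the 2 at 4.45 and 7.53 CPM, and 7 of 9 VB libraries lay above both. The log2 fold change of all VBs was then 1.33 instead of 0.61, with an adjusted p of 0.467 in edgeR's quasi-likelihood test, and it was 1.35 with library totals (adjusted p = 0.687). BdAUX1 did not pass the threshold of 0.05 in either case.

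BdTAR2L, by its name a gene of auxin synthesis, was lower in nearly every VB library than in parenchyma, by a factor that the replicates did not fix. In parenchyma, the normalized count was 24.3, 12.8 and 16.9 CPM in replicates 1, 2 and 3. In VB type 1, it was 8.90, 6.46 and 10.02 CPM. In VB type 3, it was 7.86, 9.86 and 9.88 CPM. These libraries of types 1 and 3 were all below the lowest parenchyma library. In VB type 2, the level was 14.1, 4.99 and 0.508 CPM, the last from 13 pairs, so that this type spanned a 27.7-fold range and overlapped with parenchyma through replicate 1. In all, 8 of 9 VB libraries were below every parenchyma library. Of the 16706 genes tested, 7.66% had at least 8 of 9 VB libraries below parenchyma.

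**Figure D1:**
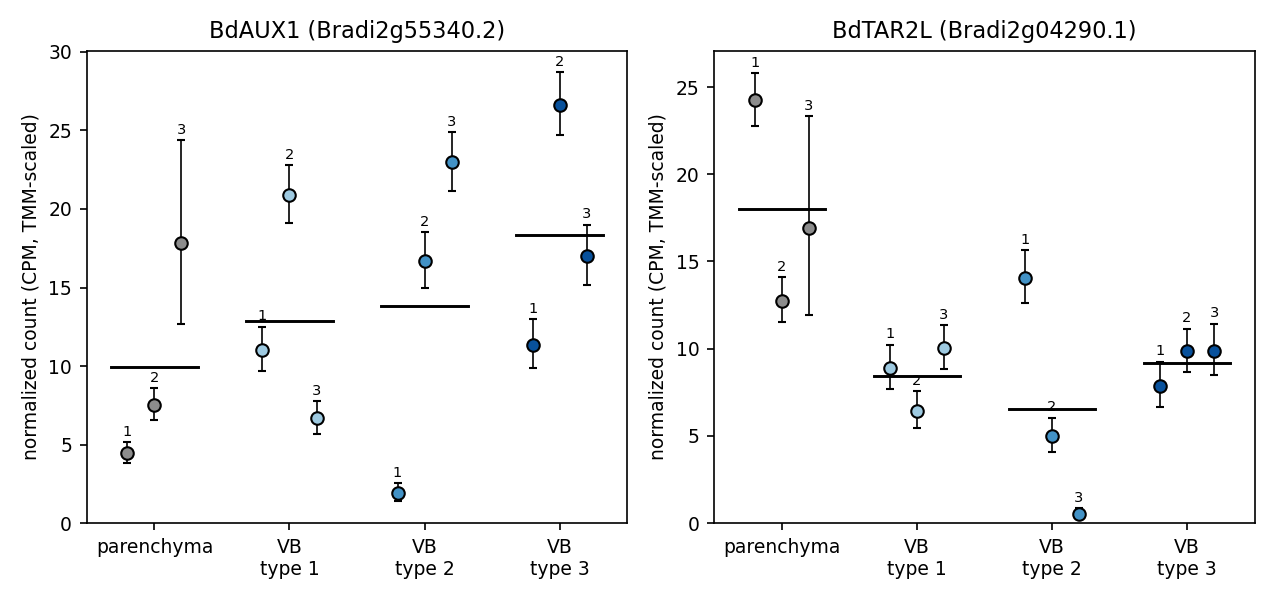
Normalized counts (CPM, TMM-scaled) of BdAUX1 and BdTAR2L in each of the 12 libraries, grouped by tissue. Points are libraries with their replicate number, vertical bars are 95% exact Poisson intervals that cover counting error only, and horizontal lines are group means (n = 3). BdAUX1 spans 1.92 to 23.0 CPM within VB type 2, and BdTAR2L is at 12.8 to 24.3 CPM in parenchyma and at 6.46 to 10.02 CPM in VB types 1 and 3.

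The mean level of BdTAR2L was 18.0 ± 5.82 CPM in parenchyma, 9.20 ± 1.16 in VB type 3, 8.46 ± 1.82 in VB type 1 and 6.53 ± 6.91 in VB type 2 (SD, n = 3). The VB types did not differ from each other beyond their spread. Relative to parenchyma, the log2 fold change was -1.07 in VB type 1 (95% interval -2.41 to 0.27), -1.45 in VB type 2 (-3.78 to 0.88) and -0.95 in VB type 3 (-2.36 to 0.47). The adjusted p-values of edgeR's quasi-likelihood test were 0.597, 0.780 and 0.620. In the exact permutation test of the log2 CPM, two-sided, p was 0.1 for VB types 1 and 3, which is the smallest value that 3 against 3 libraries can give. All libraries of the type were below all of parenchyma for 8.69% of the genes tested in VB type 1 and for 10.3% in VB type 3, so that this separation was common.

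For all VBs together, BdTAR2L had a mean of 8.06 ± 3.81 CPM (SD, n = 9) and was 2.25-fold lower than in parenchyma in the fit. The log2 fold change was -1.17 (SE 0.66, 95% interval -2.59 to 0.24), with an unadjusted p of 0.0971 and an adjusted p of 0.377 in edgeR's quasi-likelihood test. The exact permutation test, two-sided, gave p = 0.127, where 0.00455 is the smallest possible. In this comparison 5.02% of the genes tested passed the threshold, and neither BdAUX1 nor BdTAR2L was among them. The share was 0% in VB type 1, 0.12% in VB type 2 and 0.883% in VB type 3, and in VB type 1 the count of 0 went with 1869 genes at an unadjusted p under 0.05 and with 653 genes called by edgeR's likelihood ratio test.

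Without parenchyma replicate 3, the log2 fold change of all VBs was -1.20 (adjusted p = 0.477 in edgeR's quasi-likelihood test), and the same number of VB libraries, 8 of 9, were below both others. With plain library totals, its 37 pairs gave 2.87 CPM instead of 16.9, so that 1 of 9 VB libraries was below every parenchyma library. The position of the VB libraries below parenchyma therefore held for TMM and not for library totals, while the log2 fold change with totals was -1.02.

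Between VB types, neither gene passed the test. For BdAUX1, the log2 fold change was 0.13 for type 2 against type 1 (95% interval -1.87 to 2.13), 0.50 for type 3 against type 1 (-0.79 to 1.78) and 0.41 for type 3 against type 2 (-1.40 to 2.21). For BdTAR2L, these values were -0.37 (-2.72 to 1.98), 0.097 (-1.11 to 1.30) and 0.49 (-1.82 to 2.81). The adjusted p was 1 for each of them in edgeR's quasi-likelihood test, which called 0 genes in these comparisons, with 362 to 469 genes at an unadjusted p under 0.05. The likelihood ratio test called 4 to 24 genes and DESeq2 14 to 21. The intervals of BdTAR2L included differences of more than 2-fold in each direction, and that of BdAUX1 for type 3 against type 1 included a 2-fold higher but not a 2-fold lower level.

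The balance between the transcripts can be read within a library, where scaling cancels. In parenchyma, BdAUX1 pairs per BdTAR2L pair were 0.184, 0.590 and 1.05 in replicates 1, 2 and 3. In VB type 1, the ratio was 1.24, 3.24 and 0.667, and in VB type 3 it was 1.44, 2.70 and 1.72. VB type 2 held both extremes, with 0.137, 3.34 and 45.2. Of the 9 VB libraries, 7 had a higher ratio of pairs than every parenchyma library, and the exceptions were VB type 1 replicate 3 and VB type 2 replicate 1. Because both transcripts have nearly the same length, the ratio per length was close to this, for example 0.186 instead of 0.184 in parenchyma replicate 1. In parenchyma replicate 3, the ratio came from 39 and 37 pairs, with a 95% counting interval of 0.655 to 1.70. That interval holds the ratios of VB type 1 replicate 1 and VB type 3 replicate 1. With single reads, the ratio was 1.64 in parenchyma replicate 3, above the 1.20 and 1.37 of these VB libraries. Fewer VB libraries were therefore above every parenchyma library with single reads than with pairs. This ratio was chosen after the levels were seen and is given as a description, with no test.

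**Figure D2:**
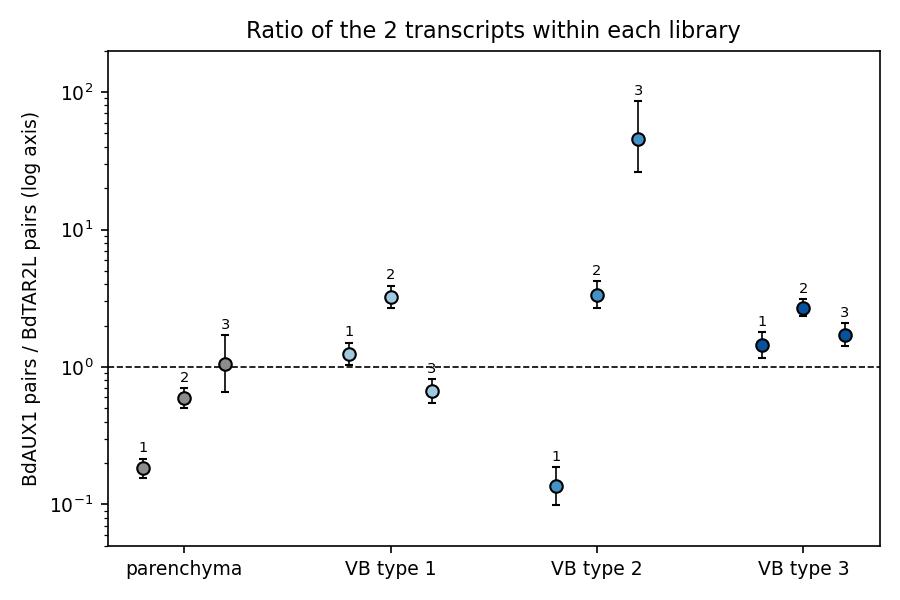
Ratio of BdAUX1 to BdTAR2L read pairs within each library on a log axis, by tissue. Points are libraries with their replicate number, bars are 95% exact binomial intervals that cover counting error only, and the dashed line marks equal counts. The 3 libraries of VB type 3 sit between 1.44 and 2.70, whereas VB type 2 runs from 0.137 to 45.2.

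Across all 12 libraries, the log2 levels of the genes were negatively correlated (Pearson's r = -0.48, Spearman's rho = -0.57), and r was -0.47 over the 9 VB libraries. How many other gene pairs reach such a value was not determined. The libraries share their scaling, and the value is a description. Replicates stood in opposite order for the genes in VB types 1 and 2, and only in part in parenchyma. In VB type 3, replicate 1 had the lowest level of both BdAUX1 and BdTAR2L, at 11.4 and 7.86 CPM. The opposite order was clearest in VB type 2. Replicate 1 had the lowest BdAUX1 (1.92 CPM, 47 pairs) together with 14.1 CPM of BdTAR2L, and replicate 3 had the lowest BdTAR2L with 23.0 CPM of BdAUX1. These libraries also differed in XCP1, which was at 148, 856 and 989 CPM in replicates 1, 2 and 3 of VB type 2. The other 5 vascular markers summed to 46.4, 83.8 and 66.0 CPM, and they did not follow 1 order, since PXY, a receptor of the procambium, was highest in replicate 1 with 18.9 CPM against 8.29 and 11.4 CPM. The part of XCP1-expressing cells in the levels of BdAUX1 and BdTAR2L was not tested. XCP1 was also lowest of its type, at 245 and 212 CPM, in replicate 1 of VB types 1 and 3, where BdAUX1 was at 11.1 and 11.4 CPM.

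Per kilobase of transcript, BdAUX1 was the less abundant of the genes in parenchyma and the more abundant in each VB type. Its mean level was 3.62 CPM per kilobase in parenchyma, against 6.46 for BdTAR2L. In VB types 1, 2 and 3, the mean level per kilobase was 4.69, 5.04 and 6.67 CPM for BdAUX1 and 3.04, 2.34 and 3.30 CPM for BdTAR2L. Both were middling transcripts in these tissues. In parenchyma, 36.1% of the genes had a lower level per kilobase than BdAUX1 and 51.8% a lower one than BdTAR2L. In all VBs, these shares were 47.3% and 28.0%. The scatter among replicates was wide for both in VB type 2, where 82.6% of the genes had a smaller SD of log2 CPM than BdAUX1 and 86.9% a smaller one than BdTAR2L. In VB type 3, BdTAR2L was among the steadier genes, with 6.99% of the genes having a smaller SD.

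The auxin export carriers are the counterpart of BdAUX1 in transport, and 2 of their 3 transcripts did not overlap between parenchyma and VBs. Of the 3 PIN genes, 1 passed the test for all VBs, in a comparison in which 5.02% of all genes did. PIN1a (Bradi1g45020.1) was at 3.20 to 34.8 CPM in parenchyma and at 50.3 to 155 CPM in the VBs, so the groups did not overlap. Every VB library was above every parenchyma library for 3.24% of the genes. The log2 fold change of PIN1a was 2.42 (SE 0.56, adjusted p = 0.0221 in edgeR's quasi-likelihood test). This call was lost without parenchyma replicate 2 (adjusted p = 0.0943) and with library totals (adjusted p = 0.293).

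SoPIN (Bradi4g26300.2) was at 0.133 to 8.24 CPM in parenchyma and at 10.2 to 49.1 CPM in the VBs, again without overlap. Its log2 fold change of 3.17 had an adjusted p of 0.0738 in edgeR's quasi-likelihood test and did not pass. It passed in the likelihood ratio test (adjusted p = 0.011), which called 10% of the genes tested. DESeq2 also called it (adjusted p = 0.000815), among 1829 of 16706 genes. Of the 12 quasi-likelihood fits that left out 1 library, 1 called it, without parenchyma replicate 1, its highest parenchyma library (adjusted p = 0.00451). The quasi-likelihood test also called it with the replicate block (0.0316), no filter (0.033) and the VBs as one group (0.0436). It missed the threshold there with library totals (0.227), RLE scaling (0.0716), single reads (0.0771), the dominant transcript removed (0.0767) and 1 CPM in a majority (0.0722). With limma-voom it missed it too (adjusted p = 0.142). PIN1b (Bradi3g59520.1) overlapped in all tissues, with 35.8, 8.66 and 0 CPM in parenchyma and 1.41 to 23.4 CPM in the VBs. Its log2 fold change was -0.49 (adjusted p = 0.854), and the sign turned to 1.23 without parenchyma replicate 1. In the library with the lowest BdAUX1, VB type 2 replicate 1, PIN1a was at 97.6 CPM and SoPIN at 36.6 CPM, each the highest of its type. A low level of the uptake transcript in that library therefore did not go with low levels of these export transcripts.

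**Figure D3:**
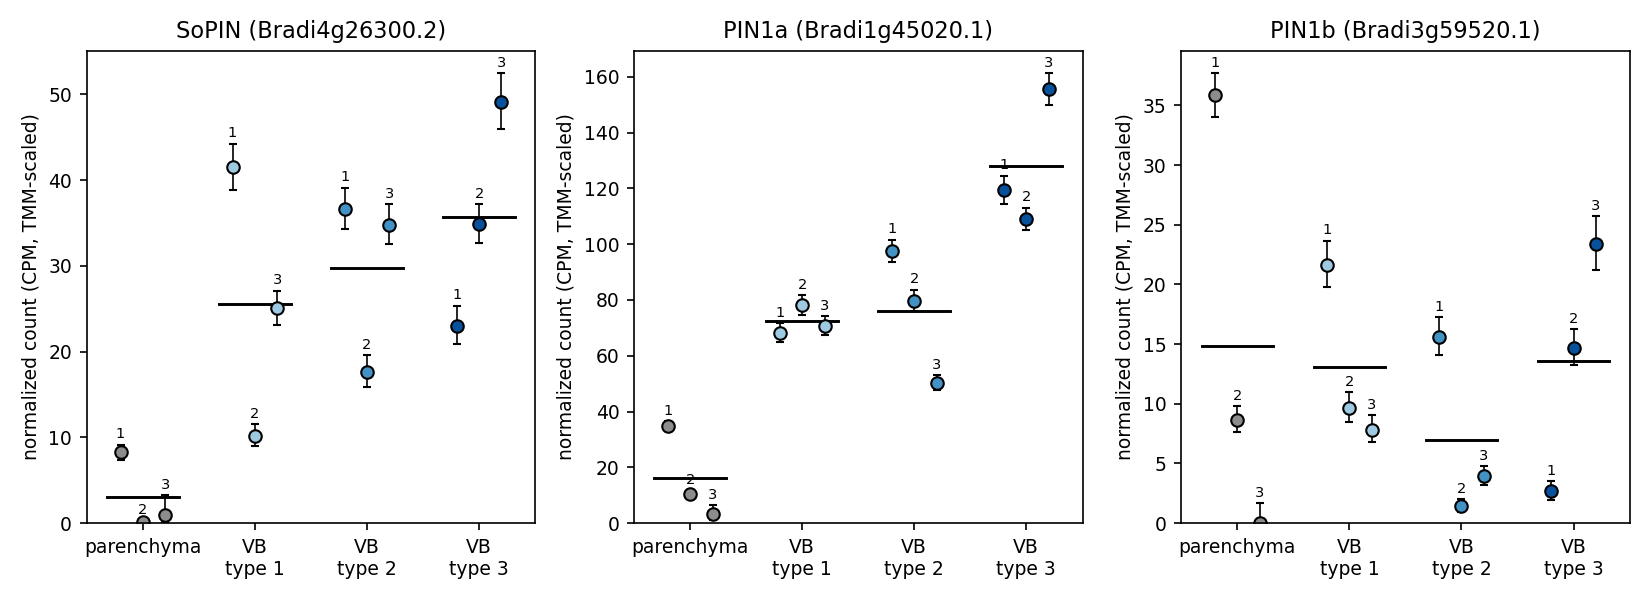
Normalized counts (CPM, TMM-scaled) of the auxin export genes SoPIN, PIN1a and PIN1b in each library. Points are libraries with their replicate number, vertical bars are 95% exact Poisson intervals that cover counting error only, and lines are group means (n = 3). SoPIN and PIN1a do not overlap between parenchyma and VBs, and PIN1b does.

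**Figure D4:**
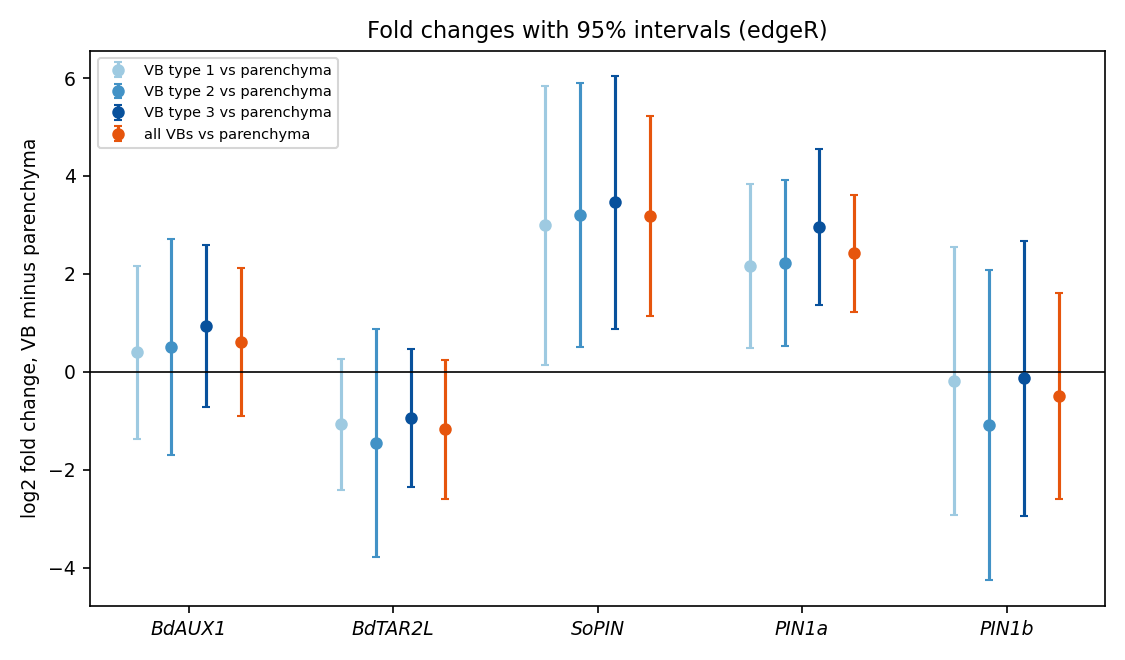
Log2 fold change of each VB type and of all VBs against parenchyma, with 95% intervals from edgeR, for BdAUX1, BdTAR2L and the PIN genes. For all VBs, the intervals of BdAUX1 (-0.91 to 2.13), BdTAR2L (-2.59 to 0.24) and PIN1b (-2.60 to 1.62) include 0. Those of SoPIN (1.13 to 5.22) and PIN1a (1.23 to 3.62) do not.

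The fold changes of the uptake, synthesis and export genes stood in the same fits and shared the parenchyma libraries. All VB point estimates of BdAUX1 were above 0, all of BdTAR2L were below 0, and each of these intervals included 0. The intervals of PIN1a excluded 0 for all types before adjustment over the genes tested, with lower bounds of 0.50, 0.53 and 1.38 on the log2 scale in VB types 1, 2 and 3. Those of SoPIN also excluded 0 before adjustment, with lower bounds of 0.15, 0.50 and 0.88.

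The transcripts whose log2 CPM followed BdAUX1 most closely over the 12 libraries, among 16705 genes, were Bradi2g08790.1 (Pearson's r = 0.87), Bradi2g00450.1 (r = 0.85) and Bradi1g05430.1 (r = 0.85). For BdTAR2L, these were Bradi5g21900.1 (r = 0.97), Bradi4g32330.2 (r = 0.95) and Bradi3g51090.1 (r = 0.95). Some of these genes came near the detection limit. Bradi2g08790.1 had a mean of 2.04 CPM and a lowest level of 0. The genes named for BdTAR2L had lowest levels of 0.0781, 0 and 0 CPM. The libraries share their scaling and tissue, and the ranks depended on the measure. By Spearman's rho, Bradi2g08790.1 was in place 33 for BdAUX1 and Bradi5g21900.1 in place 98 for BdTAR2L. Over the 9 VB libraries alone, they were in places 17 and 18 by Pearson's r.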

How the data were processed

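RNA was measured in 12 libraries, 3 each of parenchyma and VB types 1, 2 and 3, grouped by sample label. The authors used Trimmomatic for trimming and sortMeRNA against ribosomal sequences, aligned reads with Bowtie2 to 34310 transcripts and deposited raw counts of pairs whose reads both mapped to a single transcript, and of single reads. Reads with several hits, 10.4 to 16.8% per library, were not counted, so near-identical copies can be undercounted. The methods call the reads stranded and the labels do not, so antisense neighbours may be mixed. Columns of listed length come from the same tables. The aligner version is not given in the sources used here. The libraries came from 500 pg of RNA by PCR without molecular identifiers.

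The pair counts were fitted with edgeR 4.0.16 (R 4.3.3). DESeq2 1.42.0 and limma 3.58.1 served for alternatives, and matplotlib 3.10.9 (Python 3.11.15) for plots. Transcripts were kept when 3 or more of 6 libraries, or 6 or more of 12, reached 1 CPM, and scaled by TMM. edgeR's quasi-likelihood test was run on pairs of tissues in fits of 6 libraries, and on the average of all VB types against parenchyma in a fit of 12, with Benjamini-Hochberg adjustment over all genes tested and a threshold of 0.05. Standard errors were derived from F statistics. The likelihood ratio test, which the methods name, was an alternative, with DESeq2, limma-voom, other scalings and filters, one fit of all libraries, single reads, a replicate block, an exact permutation test and each library left out in turn. Log2 CPM used a prior count of 2. The scripts were tested on simulated counts with known changes.

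Genes were named by rule, namely the members, the 3 genes most like each and the PIN genes. Genes with hormone-related best hits were added after their values were seen. Members, lists and markers were chosen with earlier results of these data known. The planned lists by RefSeq description could not be built, because 0 identifiers matched that table. Columns of the authors' own comparisons were not used.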

Additional observations from a re-analysis of the deposited data

Results flagged for a closer look

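In VB type 2 replicate 3, Bradi4g27440.1, whose best Arabidopsis hit in a supplementary table of the study is the BRI1-like receptor BRL1, was at 10.1 CPM, whereas the other 8 VB libraries were at 0 to 2.98 CPM. In the same library, Bradi4g31110.3, whose best hit is a dormancy/auxin associated protein, was at 14.1 CPM, against 0 to 4.95 CPM in the others. Each value was farther from the remaining VB libraries than Dixon's test allows at its 95% level for 9 values on the CPM scale. On the log2 CPM scale, which was looked at after the data were seen, neither was, with gaps of 0.246 and 0.213 of the range in place of 0.705 and 0.649. In all, 14 genes were checked. Chance marks about 1 in 20 such groups when values are normally distributed, which was not checked for these low counts on the CPM scale. Both flagged genes had 0 pairs in each parenchyma library and reached the filter of 1 CPM through the VB libraries alone. VB type 2 replicate 3 was also the library with the lowest BdTAR2L, 0.508 CPM.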

How the results depend on the processing

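Neither BdAUX1 nor BdTAR2L passed the threshold under any alternative or with any library left out. Of 264 comparisons of these genes under an alternative, 251 kept their direction. The other 13 changed sign, none past the threshold. For BdAUX1 in VB type 2 against type 1, the value was -0.62 with limma-voom, -0.32 with the replicate block and -0.34 in the permutation test. For BdTAR2L in type 3 against type 1, it was -0.15 with library totals. With 1 library left out, BdAUX1 ranged from -0.061 to 1.12 in VB type 1, from -0.058 to 1.24 in VB type 2, from -0.47 to 0.67 in type 2 against type 1 and from -0.13 to 0.98 in type 3 against type 2. BdTAR2L then ranged from -1.59 to 0.16 in type 2 against type 1, from -0.079 to 0.25 in type 3 against type 1 and from -0.054 to 1.73 in type 3 against type 2. PIN1b changed sign with limma-voom (0.27 in VB type 1, 0.24 in type 3) and with the replicate block (0.87, 0.73 and, for all VBs, 0.034). With 1 library left out it ranged from -0.75 to 1.54 in type 1, -2.47 to 0.65 in type 2, -0.75 to 1.54 in type 3 and -1.04 to 1.23 for all VBs. The causes were not tested.

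The number of genes called moved more. For VB types 1, 2 and 3 and all VBs, the quasi-likelihood test called 0, 20, 145 and 839, the likelihood ratio test 653, 556, 702 and 1676, DESeq2 806, 749, 929 and 1829, and library totals 70, 37, 30 and 145. For types 1, 2 and 3, limma-voom called 144, 145 and 304, no filter 112, 360 and 570, and one fit of all libraries 190, 310 and 287. In VB type 2, the count was 61 without the dominant transcript, 5 with 1 CPM in a majority and 7 with single reads. Between types 2 and 1, 3 and 1, and 3 and 2, the likelihood ratio test called 19, 24 and 4 genes and DESeq2 16, 21 and 14. With 1 library left out, the counts were 0 to 8 in VB type 1, 0 to 11 in type 2, 0 to 144 in type 3 and 573 to 827 for all VBs. With library totals, the median gene had a log2 fold change of 0.18 for all VBs, against 0.012 with TMM.

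Replicate numbers were not taken as pairs, since no comparison had all 3 correlations of same-numbered deviations over 0.1. Between VB types, these correlations were nevertheless 0.216 to 0.475 for replicates 1 and 3, and -0.0506 to 0.0166 for replicate 2. Same-numbered VB libraries may therefore share some variation, whose source was not tested. The SD over all VB libraries and the permutation test treated the libraries as independent. The replicate block gave 6 calls in VB type 2, 1 in VB type 3 and 777 for all VBs, and log2 fold changes for all VBs of 0.64 for BdAUX1 (adjusted p = 0.670) and -1.18 for BdTAR2L (adjusted p = 0.395). Depth limited parenchyma replicate 3 most, with 39 and 37 pairs on these transcripts.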

Other observations

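A supplementary table of the study lists best Arabidopsis hits for 820 genes in the part held here, ordered by significance on these same libraries, so the directions of its genes are not independent evidence and no set was tested. Its hits differ from those of another table of the study for each of the 599 genes in both. The hits of the first table were used, since they name auxin efflux carriers for SoPIN and PIN1a, and the gene names below rest on that choice. Of 11 genes whose hit names auxin or brassinosteroid, 7 passed edgeR's quasi-likelihood test for all VBs, in which 5.02% of all genes did. That share is no background for the 11, because their table was ordered by significance on these libraries. Of the 7, 6 were higher in VBs. Among the 6 were PIN1a, already described, and Bradi2g33417.1, which reached the filter of 1 CPM through the VB libraries alone. SoPIN was also 1 of the 11 and did not pass. The genes other than PIN1a and SoPIN were chosen after their values were seen. Among genes of auxin response, Bradi4g02580.1 (hit IAA3, of the Aux/IAA repressors that auxin removes) was at 5.73 to 8.34 CPM in parenchyma and at 22.3 to 91.6 CPM in the VBs (log2 fold change 2.81, SE 0.44, adjusted p = 0.00231). Bradi1g34340.1 (hit ARF7, a factor that switches auxin-responsive genes on) was at 13.2 to 17.4 CPM in parenchyma and at 39.5 to 151 CPM in the VBs (log2 fold change 2.16, SE 0.44, adjusted p = 0.0112). Both remained past the threshold in each of the 12 fits that left out 1 library. The Aux/IAA hits IAA1 (Bradi1g14230.1) and IAA14 (Bradi1g09090.1) had log2 fold changes of 2.28 and 2.47, with adjusted p-values of 0.0203 and 0.0372 in the same test, and passed in 10 and 4 of these 12 fits. Both missed the threshold without parenchyma replicate 2 (adjusted p = 0.0855 and 0.0592). IAA1 also missed it with limma-voom (adjusted p = 0.169) and IAA14 with the replicate block (adjusted p = 0.0554). With library totals in place of TMM, these 4 genes of auxin response all missed it (adjusted p = 0.0575 to 0.198). Bradi2g33417.1 (hit IAA26) had 2, 20 and 2 pairs in parenchyma replicates 1, 2 and 3 and was at 3.48 to 21.6 CPM in the VBs.

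On the brassinosteroid side, Bradi1g15030.1 (hit BR6OX2, an enzyme of the last steps of brassinosteroid synthesis) was lower in VBs. It was at 112, 77.3 and 13.7 CPM in parenchyma replicates 1, 2 and 3. In VB type 1 it was at 3.27, 14.0 and 3.34 CPM, in VB type 2 at 22.9, 16.8 and 15.7 CPM, and in VB type 3 at 3.60, 0.699 and 4.97 CPM. The tissues overlapped, since 5 of 9 VB libraries were below every parenchyma library and all of VB type 2 were above parenchyma replicate 3. The log2 fold change of all VBs was -3.22 (SE 0.59, adjusted p = 0.00678 in edgeR's quasi-likelihood test), and it passed in all 12 fits that left out 1 library. VB type 2 was above both other types in every library, but type 3 against type 2 had an adjusted p of 1. Bradi4g27440.1 (hit BRL1) had 0 pairs in each parenchyma library. The 95% exact Poisson upper limits of these counts were 0.0884, 0.123 and 1.69 CPM in replicates 1, 2 and 3. This transcript was detected in 8 of 9 VB libraries and reached the filter of 1 CPM through the VB libraries alone. Its direction is therefore not independent evidence, and it did not pass edgeR's quasi-likelihood test for all VBs (adjusted p = 0.0834).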
